A study of Nasonia vitripennis with 76 samples.

Results

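The 60 genes described here belong to the parasitoid wasp Nasonia vitripennis and were expressed in male heads and less, or hardly at all, in female heads. They are known only by a LOC number, an automatic gene identifier that carries no name or function. They were selected on their measured levels in heads. A gene had to reach a mean of 5 TPM (a transcript level corrected for gene length and scaled to one total per library) in each of the 4 male head groups, which 7451 of the 13784 LOC genes in the TPM table did. These were ordered by the lowest male head group mean divided by the highest female head group mean plus 0.1 TPM, and the 60 with the highest ratio were kept. The sex difference in heads therefore chose the genes and is given as a description, without a test. The reference gene table lists 58 of them as protein coding and 2, LOC103317823 and LOC116416245, as long non-coding RNAs, and it gives none of them a product, so no role is stated for any LOC gene below.

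Nasonia is haplodiploid: unfertilised eggs normally become haploid males and fertilised eggs diploid females. The gene transformer, kept active in females by splicing and by a maternal supply, directs female splicing of doublesex and fruitless, and without it an embryo develops as a male, even a diploid one. Male and female insects differ in head tissues such as the antennae, eyes, brain and glands, and Nasonia males court with head nodding and a secretion released from the mouthparts. The genes below are described only by their levels, and none was tied to a head structure by these data.

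All libraries came from the TRA line, an artificially induced neo-polyploid line founded by knocking down transformer, and all wasps were taken 1 day after emergence. Males of generations F3 and F15 were sampled as haploids (1N) and diploids (2N), and females of generations F2 and F14 as diploids (2N) and triploids (3N). Heads and abdomens were sequenced separately, which gave 76 polyA RNA libraries in 16 groups, with 5 libraries in most groups and 3 in the F3 2N male abdomens and the F2 2N female abdomens. No wild-type or untreated line was analysed here, so the knockdown that founded the line is shared by every group. The labels do not say whether a library was made from 1 wasp or a pool, or whether a head and an abdomen came from the same wasps, so the p-values measure the spread between libraries only. Generation cannot be told apart from anything else that differed between the early and the late libraries.

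Total counts per library were 14210238 to 60120449, with a median of 21588450. The heads carried the head markers they should: the opsin gene Lop1 was at 1893 to 14846 TPM in male heads and at most 4.80 TPM in male abdomens. Tra, the transformer gene, was at 39.04 to 190.3 TPM in male heads and 349 to 1663 TPM in female heads. Library A34, labelled as an F2 3N female head, had no Lop1 and 823 TPM of oskar, an ovarian germ plasm gene, so the selection left it out. No level or test below includes A34, but an alternative selection described below kept it. Library A35 of the same group differed from its group in single genes and is named where it sets a value. Among the F3 1N male heads, libraries A1A and A2A stood apart from A3, A4 and A5. Or1, the olfactory co-receptor of antennal neurons, was at 4.54 and 2.89 TPM in A1A and A2A and at 65.1 to 96.0 TPM in the other 3. For 41 of the 60 genes A1A and A2A were both below each of A3, A4 and A5, and for 7 genes both were above them. In the F15 2N heads Or1 was at 1.16 and 1.39 TPM in A81 and A84 and at 49.05 to 83.6 TPM in the other 3. Low Or1 was not limited to these libraries. Its group means in female heads were 7.01 (2N) and 1.79 TPM (3N) at F14, against 151 (2N) and 162 TPM (3N) at F2. The F2 3N female heads ranged from 1.33 to 224 TPM. The fits on male heads are given with and without A1A, A2A and the F3 2N library A15A, a set chosen with earlier results of these data known. A15A did not stand apart in Or1, at 11.4 TPM where the other F3 2N heads were at 4.79 to 26.6 TPM, so fits without A1A and A2A alone, and without A81 and A84, were added after the data were seen.

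The ratios ran from 740 down to 1.45 with a median of 2.14, so the list joins a small group of nearly male-limited genes to a long tail of moderate differences. The ratio was at least 100 in 7 genes, at least 10 in 13 and at least 2 in 35. The highest female head group mean was under 1 TPM for 11 genes and 5 TPM or more for 34. In 20 genes every male head library was above every female head library.

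LOC100123365 had the highest ratio. Its levels in the F3 1N heads were 41.2, 46.9, 249, 653 and 945 TPM, and in the F3 2N heads 54.3, 81.2, 154, 245 and 332 TPM. In the F15 heads it was at 828 to 1459 TPM in haploids and 455 to 954 TPM in diploids. No female head library passed 0.29 TPM. The male and female levels were far apart in every library, while the F3 1N libraries among themselves covered a range as wide as that between the male groups, with A1A and A2A lowest.

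LOC100123371, the gene next to LOC100123365 in the reference gene order, was at 6.36, 6.80, 76.2, 136 and 204 TPM in F3 1N heads. It was at 12.2 to 78.4 TPM in F3 2N heads, 37.5 to 95.2 TPM in F15 1N heads and 26.2 to 53.6 TPM in F15 2N heads, against at most 0.27 TPM in females. Its levels were lower than those of its neighbour in every male head group. LOC100678345 was at 17.98, 27.96, 102, 121 and 138 TPM in F3 1N heads, 27.1 to 81.8 TPM in F3 2N heads, 79.3 to 183 TPM in F15 1N heads and 51.7 to 83.5 TPM in F15 2N heads. No female head passed 0.45 TPM. It also sat beside another of the 60 genes, LOC100379181, which was at 3.54, 5.31, 20.2, 36.5 and 37.7 TPM in F3 1N heads and 33.7 to 84.3 TPM in the F15 heads. In both genes A1A and A2A were the lowest F3 1N libraries.

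LOC100124060 was at 5.94, 8.53, 67.4, 123 and 171 TPM in F3 1N heads, 9.69 to 114 TPM in F3 2N heads, 48.1 to 105 TPM in F15 1N heads and 53.6 to 83.6 TPM in F15 2N heads. LOC103316980 was at 8.13, 12.3, 195, 377 and 393 TPM in F3 1N heads and 53.4 to 407 TPM in the F15 heads. In both, the early groups spanned more than 10-fold between libraries and overlapped the late groups. LOC100119652 differed: it was at 21.6, 27.4, 97.1, 165 and 250 TPM in F3 1N heads, 103 to 297 TPM in F3 2N heads, 661 to 1081 TPM in F15 1N heads and 277 to 382 TPM in F15 2N heads. Its F15 1N libraries were above every other male head library.

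LOC103315799 was the least even of the 60. In F3 1N heads it was at 0.06, 3.15, 6.07, 42.5 and 49.6 TPM, and in F3 2N heads at 11.7 to 92.9 TPM. In F15 1N heads it was at 7.92, 281, 1614, 1713 and 2269 TPM, and in F15 2N heads at 0.36, 1324, 1457, 2916 and 4793 TPM. A single library in each late group, A74 and A81, thus fell to the early levels or below while the rest were at 281 TPM or more. It was the gene of the 8 whose male and female libraries overlapped, since female heads reached 0.36 TPM.

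**Figure D1:**
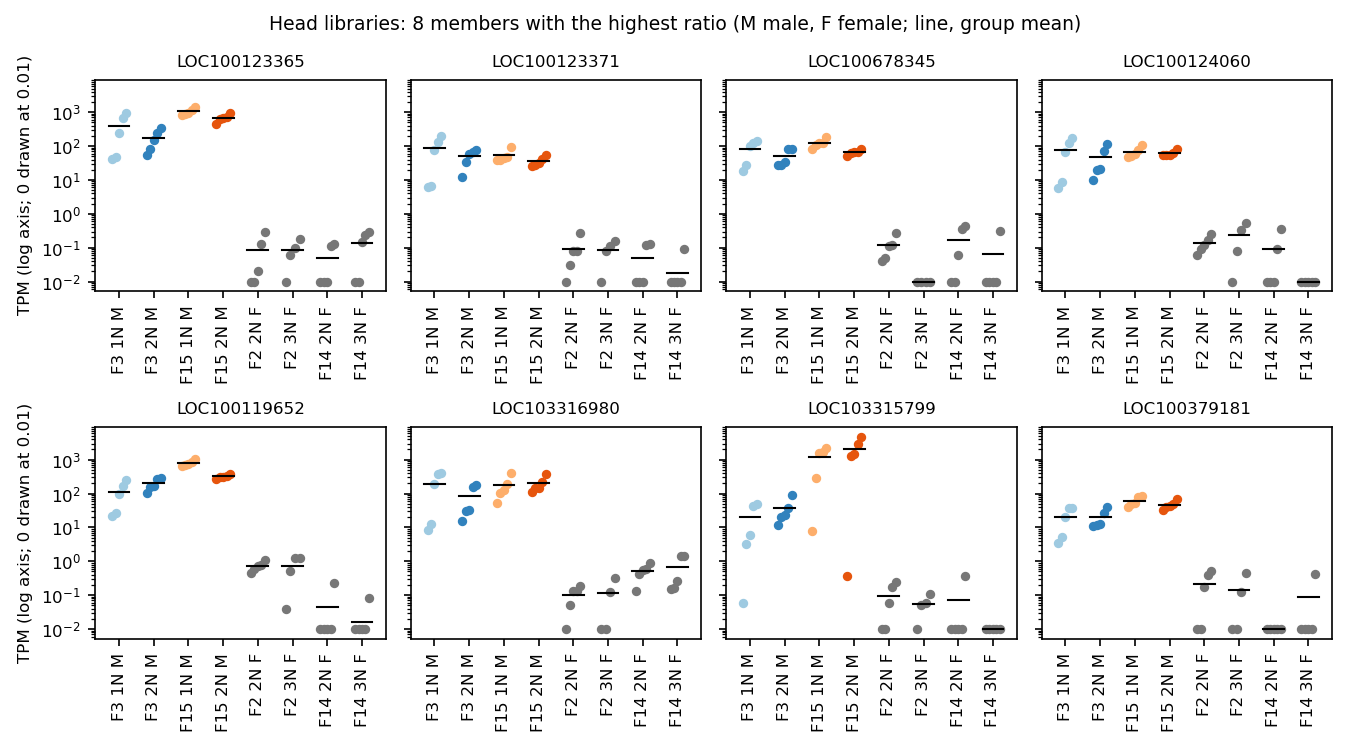
TPM of the 8 genes with the highest ratio in every head library (log axis; a level of 0 is drawn at 0.01; coloured points, male libraries by group; grey points, female libraries; line, group mean). Male heads lie far above female heads in all panels except for single low libraries of LOC103315799, and the 2 low points in each F3 1N column of LOC100123365 are A1A and A2A at 41.2 and 46.9 TPM.

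The selection stopped in a dense part of the ordering. The last genes inside were LOC100113821 and LOC100115937, whose ratios were 1.4547 and 1.4499, and the first outside were LOC100679680 and LOC100123403, at 1.4458 and 1.4420. Membership depended on the settings, and the losses were not limited to the end of the list. Of the 60, 54 were kept when A34 was left in its labelled group, and the highest-ranked loss was rank 31. Without A1A, A2A and A15A 53 were kept, with losses from rank 16. A minimum mean of 10 TPM kept 46, and it removed rank 14, LOC100116183, whose lowest male head group mean was 8.86 TPM. Group medians kept 48, with losses from rank 27. Counts scaled to the library total and then by TMM factors, without the length correction, kept 49, with losses from rank 16. The TMM factors, a further scaling between libraries, were estimated over all libraries, A34 included. Which of these changes moved the list was not tested. Adding 1 TPM in place of 0.1 kept 55, and leaving out A34 and A35 kept 58, with losses from ranks 50 and 58.

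Restricting the list to LOC numbers left out named genes with the same pattern. Of 392 genes with another symbol that reached the minimum, 9 had a ratio at least as high as the last of the 60. They included 4 cytochrome P450 genes, a family of oxidising enzymes that act on hormones, pheromones and foreign compounds: CYP9AG7, CYP6CK11, CYP6CK8 and CYP4AB14, with ratios of 11520, 41.2, 20.6 and 14.998. CYP9AG7 was at 435 to 22546 TPM in male heads, at most 0.41 TPM in female heads and at most 3.73 TPM in male abdomens. The others were the serine protease gene SP137, the serine protease homologue SPH103, the odorant receptor Or296 and the glutathione transferases GstT1 and GstT2, with ratios of 5.14 down to 1.54.

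In the reference gene order 17 of the 60 genes stood within 10 genes of another one, in 8 runs, and 12 stood directly beside another. The longest run held LOC116418355, LOC100677967 and LOC100680517, all with low ratios of 1.73, 1.57 and 2.03. Pairs did not always match in strength. LOC100124060, with a ratio of 138, stood beside LOC100124062 at 1.56, and LOC107980460, at 30.1, beside LOC100121889 at 2.29. The other genes next to the leading pair, LOC100678334 and Ndufa7, a subunit of mitochondrial complex I, had low ratios of 0.0745 and 0.737. The ratio sets the lowest male group against the highest female group. By the mean over groups, LOC100678334 was at 120 TPM in male heads and 59.4 TPM in female heads. Ndufa7 was at 2582 and 2531 TPM. Of the 60 genes, 42 overlapped another gene in the reference table, as did 10725 of all 15304 genes in the order. The overlaps compare whole gene spans, without strand or exons, so shared exon sequence was not examined. The protocol does not state a strand-specific kit, so reads from exons shared by genes on opposite strands could not be told apart by strand. LOC100123365, LOC100123371 and LOC103316980 overlapped LOC100118566, whose mean was 31.8 TPM in male heads and 32.98 TPM in female heads. Other genes that overlapped them were higher in male heads: LOC100678131, at 143 against 98.99 TPM, and LOC100116079, at 5.13 against 3.64 TPM, overlapped the first 2, and b6, at 1.31 against 0.326 TPM, overlapped LOC103316980.

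Abdomens divided the list. In 6 genes every male abdomen group mean was under 1 TPM: LOC100123365, LOC100124060, LOC103316980, LOC116738555, LOC116416759 and LOC116416245. In 35 genes every male abdomen group mean was 5 TPM or more, and the other 19 lay between. The mean over the male abdomen groups was above the mean over the male head groups in 21 of the 60. Since male head levels entered the selection and abdomen levels did not, head and abdomen are set side by side here without a test, and in whole heads and abdomens fewer expressing cells and less RNA per cell cannot be told apart.

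The 5 genes with the lowest abdomen to head ratio were LOC100123365, LOC103316980, LOC116416759, LOC100124060 and LOC103315799. LOC100123365 averaged 579 TPM over the male head groups and 0.261 TPM over the male abdomen groups, and no male abdomen library passed 0.75 TPM. LOC103316980 averaged 164 TPM in heads and 0.188 TPM in abdomens, and LOC116416759, a lower gene at 10.2 TPM in heads, was listed at 0 in every male abdomen library but 1, at 0.86 TPM. LOC103315799 averaged 833 TPM in heads and 5.82 TPM in abdomens, but the abdomen mean came from 1 F3 1N library, A10, at 102 TPM, where the other male abdomen libraries were at 0 to 3.55 TPM. That library was above every F3 male head, of which the highest was at 92.9 TPM. The thorax was not sequenced, so head and abdomen are the only body parts compared.

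At the other end stood LOC100680022, LOC100679738, LOC100116183, LOC100379181 and LOC100115155, with abdomen to head ratios of 94.7, 25.6, 24.5, 8.47 and 6.56. LOC100680022 averaged 7.99 TPM in male heads and 757 TPM in male abdomens, and it was also at 1.23 to 594 TPM in female abdomens. LOC100116183 averaged 26.6 TPM in male heads and 652 TPM in male abdomens, with at most 3.53 TPM in any female abdomen. LOC100379181, whose neighbour LOC100678345 averaged 79.8 TPM in male heads and 3.28 TPM in male abdomens, showed the opposite balance at 37.1 and 314 TPM.

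**Figure D2:**
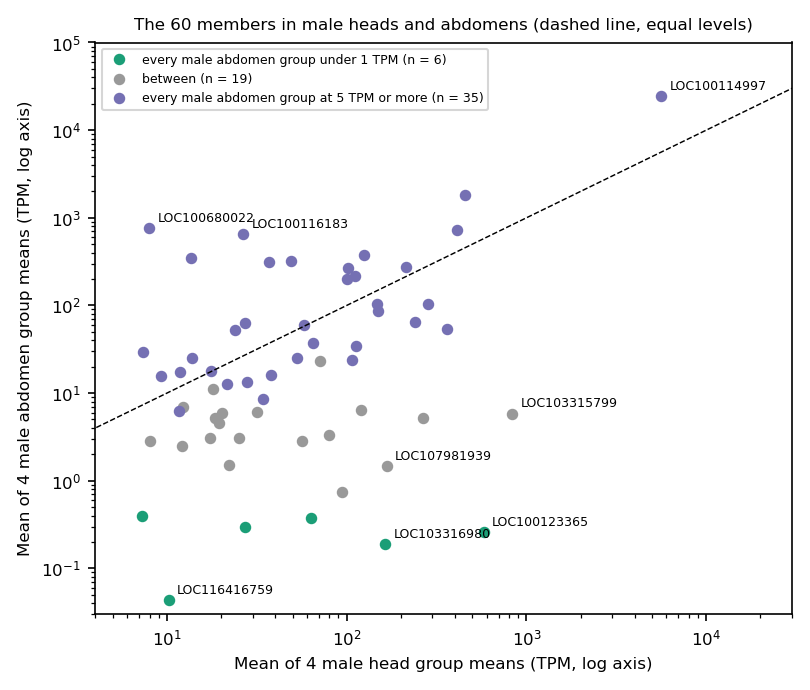
Mean of the 4 male head group means (x) against the mean of the 4 male abdomen group means (y) for the 60 genes, in TPM on log axes (colours, the 3 abdomen classes; dashed line, equal levels). LOC100114997 is far above all others at 5621 and 24470 TPM, and the 6 genes of the lowest class lie under 1 TPM in abdomens with head means from 7.25 to 579 TPM.

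LOC100114997 had the highest mean of the 60 genes in male heads and in male abdomens. In F3 1N heads it was at 435, 602, 711, 762 and 1186 TPM, and in F3 2N heads at 676, 1634, 2062, 3753 and 6621 TPM. In F15 1N heads it was at 9920, 10267, 10370, 11188 and 11552 TPM, and in F15 2N heads at 5223, 7852, 8214, 9221 and 10165 TPM. Every F15 1N library was above every F3 library. The F15 2N libraries overlapped only the highest F3 2N one, A15A at 6621 TPM. The next F3 2N library, at 3753 TPM, was below every F15 2N library. In abdomens it was at 984, 1093, 1119, 1700 and 2612 TPM in F3 1N, 4817, 7737 and 12711 TPM in F3 2N, 12839, 40360, 41849, 50647 and 57183 TPM in F15 1N, and 36616, 43886, 50164, 52316 and 53920 TPM in F15 2N. All F15 abdomens exceeded all F3 abdomens, narrowly so for A78, the lowest F15 1N library. Female abdomens did not pass 5.82 TPM, and female heads did not pass 0.86 TPM apart from A35 at 132 TPM. Summed over the 60 genes, male abdomens held 7271 to 65929 TPM with this gene and 5567 to 9237 TPM without it, and female abdomens 913 to 1809 TPM with it.

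The abdomens, which the selection did not use, allowed a test of sex. Diploid males were compared with diploid females, as the mean of the early and the late period, with edgeR's quasi-likelihood test on counts over all genes. The males were of F3 and F15 and the females of F2 and F14, so sex cannot be told apart from that difference in generation. A gene is called at a Benjamini-Hochberg adjusted p below 0.05 over all genes of a fit, and this holds for every call below. Of the 59 genes tested, 48 were higher in male abdomens and 6 lower. Over all 12252 genes the male abdomens were higher for 45.9% and lower for 39.9%. The median log2 difference was 3.37 for the 59 genes and 0.26 for all genes, a median that became 0.46 with another scaling (relative log expression). Of the 59, 13 passed the low-count filter only through male abdomens and had to be higher, and all 13 were. The median of 3.37 includes these 13 genes and was not computed without them. Of the 45 that passed it in both sexes, 35 were higher, 6 lower and 4 not called.

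The lowest adjusted p-values were those of LOC100114997 and LOC100119652. LOC100114997 was higher in males by a log2 difference of 13.50 ± 0.66 (SE, edgeR adjusted p 3.02e-18), and LOC100119652 by 9.59 ± 0.47 (edgeR adjusted p 3.66e-18). In the latter, 2N male abdomens were at 23.9 to 81.9 TPM and no 2N female abdomen passed 0.19 TPM, so the groups did not overlap. The 6 that were lower in 2N male than 2N female abdomens, although higher in male heads, were LOC107980460, LOC100121327, LOC100680214, LOC100121833, LOC100115330 and LOC116738634. LOC107980460 was at 3.09 to 6.43 TPM in 2N male abdomens and 11.1 to 100.2 TPM in 2N female abdomens, a log2 difference of -2.65 ± 0.24 (edgeR adjusted p 6.2e-12). LOC100115330 had a difference of -2.41 ± 0.13 (edgeR adjusted p 1.81e-17). For these 6 the direction of the sex difference in 2N abdomens was opposite to that in heads. The difference between tissues was not tested because head levels chose the genes. Over all ploidies LOC100121833 averaged 23.4 TPM in male abdomens, with group means of 3.90 to 57.8 TPM, and 19.0 TPM in female abdomens. The rest of the 6 had the higher mean in female abdomens over all ploidies too.

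In male heads the late generation was compared with the early one over both ploidies. The selection used only a minimum and the lowest of the 4 male head means, which fixes no direction among them. Of the 60 genes, 24 were higher at F15 and 1 was lower. Over all 10943 genes tested, 23.4% were higher and 28% lower. The median log2 difference was 0.39 for the 60 and -0.03 for all genes. Without A1A, A2A and A15A, 25 of the 60 were higher and 3 lower, against 24% and 24.6% of all genes, and 23 genes were called in both fits in the same direction. By group means, 34 of the 60 were higher at F15 in both ploidies and 6 lower in both.

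LOC107981939 had the lowest adjusted p. It was at 19.0, 19.1, 28.8, 62.1 and 74.02 TPM in F3 1N heads and 58.2 to 126 TPM in F3 2N heads, and at 205 to 393 TPM in F15 1N and 181 to 285 TPM in F15 2N heads. The early and late libraries did not overlap, and the log2 difference was 2.00 ± 0.21 (edgeR adjusted p 3.63e-07). LOC100117097 was at 104 to 367 TPM in F3 heads and 467 to 884 TPM in F15 heads, also without overlap, a log2 difference of 1.64 ± 0.20 (edgeR adjusted p 2.13e-06). The largest rise was that of LOC103315799, a log2 difference of 5.69 ± 1.14 (edgeR adjusted p 0.000439), with the uneven libraries described above. The single lower gene was LOC100121297, at -0.93 ± 0.26 (edgeR adjusted p 0.00586), which became -0.57 (edgeR adjusted p 0.0711) without A1A, A2A and A15A. Among the 8 genes with the highest ratio, LOC100123365, LOC100119652, LOC103315799 and LOC100379181 were higher at F15, and LOC100123371, LOC100678345, LOC100124060 and LOC103316980 were not called. Without A1A, A2A and A15A LOC100123371 was called lower at F15, by -0.88 ± 0.32 (edgeR adjusted p 0.0352).

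**Figure D3:**
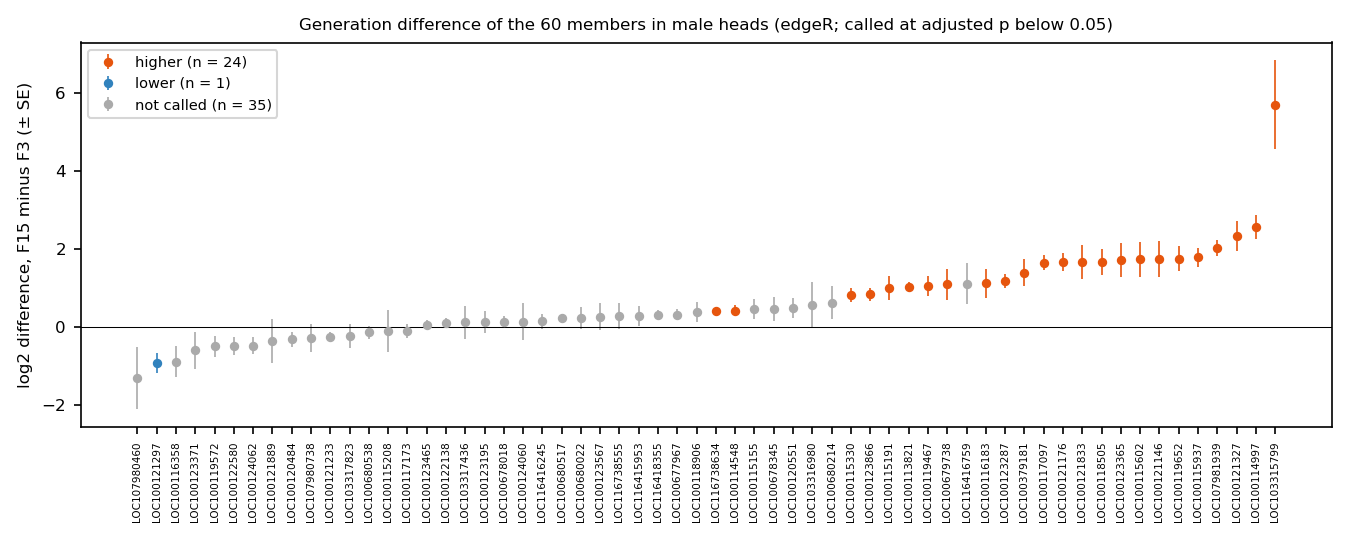
log2 difference between F15 and F3 male heads (mean of both ploidies, edgeR; error bars, SE) for the 60 genes in order of size; orange, called higher (24); blue, called lower (1); grey, not called (35). LOC103315799 at 5.69 and LOC100114997 at 2.56 are the highest 2.

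In male abdomens the generations differed in both directions. Of the 58 genes tested, 18 were higher at F15 and 21 lower, and over all 11773 genes 27.3% were higher and 25.9% lower. LOC100114997 rose by a log2 difference of 3.73 ± 0.33 (edgeR adjusted p 1.43e-07). LOC100678018 rose by 1.13 ± 0.14 (edgeR adjusted p 2.77e-06). LOC100121833 was lower by -2.33 ± 0.22 (edgeR adjusted p 2.28e-07) and LOC100119467 by -1.34 ± 0.14 (edgeR adjusted p 9.12e-07).

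The 24 genes that were higher at F15 in heads did not move one way in abdomens. In abdomens 9 of them were higher at F15, 9 were lower and 6 were not called. Of all 2558 genes that were higher at F15 in heads, 62.7% were also higher in abdomens and 5.82% lower. LOC100116183 shows the contrast. In heads it was at 2.10 to 14.9 TPM in F3 1N and 24.5 to 74.96 TPM in F15 1N, and at 6.09 to 51.1 TPM in F3 2N and 13.8 to 36.8 TPM in F15 2N. The haploid heads were higher at F15 without overlap, while the diploid heads overlapped and had group means of 25.1 and 22.7 TPM, and the ploidy by generation interaction in heads was called (-2.68 ± 0.75, edgeR adjusted p 0.0336), a call that was lost without A1A, A2A and A15A (edgeR adjusted p 0.0687). In abdomens it was at 1619, 1695, 1858, 1909 and 2594 TPM in F3 1N, 218, 347 and 560 TPM in F3 2N, 47.2, 136, 318, 322 and 469 TPM in F15 1N, and 4.11, 29.1, 40.8, 62.9 and 64.6 TPM in F15 2N. The abdomen libraries lay lower in the late generation within each ploidy. The log2 differences over both ploidies were 1.11 ± 0.37 in heads (edgeR adjusted p 0.0186) and -2.96 ± 0.46 in abdomens (edgeR adjusted p 4.16e-05). LOC100115602, LOC103315799, LOC100121146, LOC100121327, LOC100121833, LOC100123287, LOC100118505 and LOC100119467 were the other 8 called in opposite directions. Heads and abdomens were fitted separately, and the difference between tissues was not tested.

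**Figure D4:**
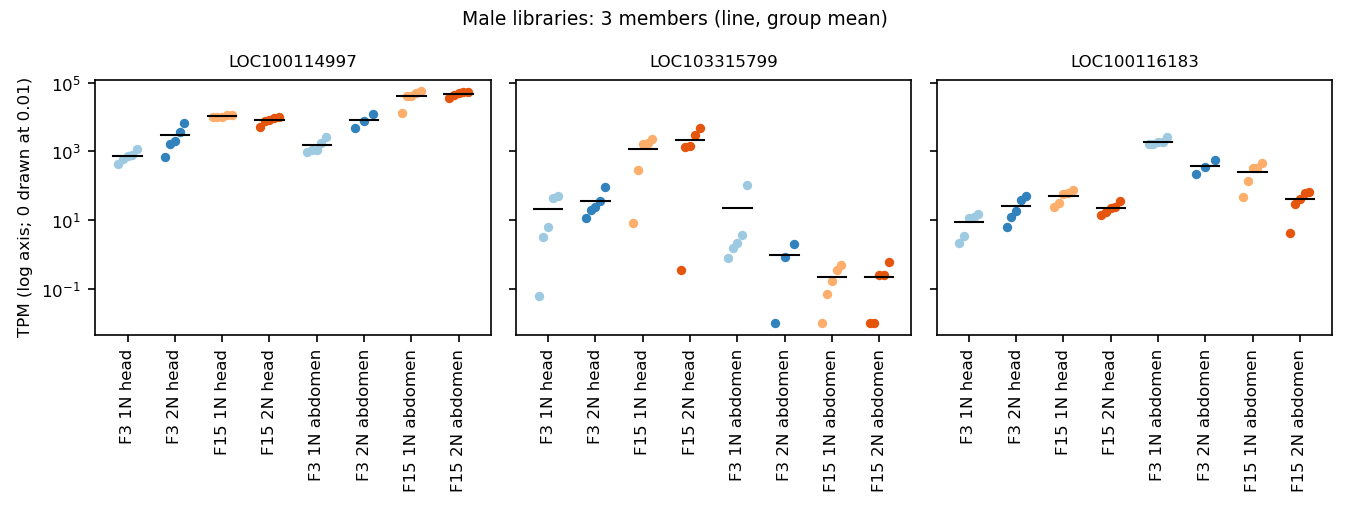
TPM of LOC100114997, LOC103315799 and LOC100116183 in every male library (log axis; a level of 0 is drawn at 0.01; line, group mean). LOC100114997 is higher at F15 in both tissues, LOC103315799 is at 281 or more only in F15 heads, with 1 low library in each late group, and LOC100116183 is at 1619 or more in F3 1N abdomens and at 64.6 or less in F15 2N abdomens.

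Ploidy was compared within each generation as diploid minus haploid males. In F3 heads 10 of the 60 genes were called, 6 higher and 4 lower in diploids, where 12% of all genes were called. The count and its direction changed without A1A, A2A and A15A: 21 were called, 3 higher and 18 lower, against 32.7% of all genes, and 6 genes were called in both fits, each in the same direction. Without A1A and A2A alone, with A15A kept, 21 were called, 4 higher and 17 lower, against 34.7% of all genes. The difference was lower without these libraries for 47 of the 60 genes. Of the libraries left out, A2A and A1A had Or1 at 2.89 and 4.54 TPM, against 65.1 to 96.0 TPM in the other F3 1N heads. A15A, at 11.4 TPM, lay within the 4.79 to 26.6 TPM of the other F3 2N heads. Total counts and the number of genes with a count were lower in A1A, A2A and A15A than in the other libraries of their groups. The part of Or1 or of depth in the result was not tested.

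LOC100121233 was lower in F3 diploid heads in both fits. It was at 74.7, 80.6, 81.1, 86.4 and 91.7 TPM in haploids and 25.8, 28.1, 29.6, 36.6 and 48.6 TPM in diploids, without overlap, a log2 difference of -1.56 ± 0.19 (edgeR adjusted p 6.73e-05). Here A1A and A2A did not stand apart. LOC100122580 was at 30.3 to 63.7 TPM in haploids and 12.02 to 17.6 TPM in diploids, a difference of -1.87 ± 0.33 (edgeR adjusted p 0.0013). LOC100116358 was at 15.4, 23.5, 25.1, 45.6 and 97.4 TPM in haploids and 50.1, 170, 178, 451 and 485 TPM in diploids, a difference of 2.52 ± 0.58 (edgeR adjusted p 0.00846), with 1 diploid library inside the haploid range. LOC100114997 was higher in diploids by 1.83 ± 0.43 (edgeR adjusted p 0.00898) in the libraries given above, a call that was lost with only the F3 groups in the fit (edgeR adjusted p 0.0762). LOC100123365 was not called with all libraries, at -1.28 (edgeR adjusted p 0.187), and was called without the 3, at -1.94 ± 0.51 (edgeR adjusted p 0.0105).

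**Figure D5:**
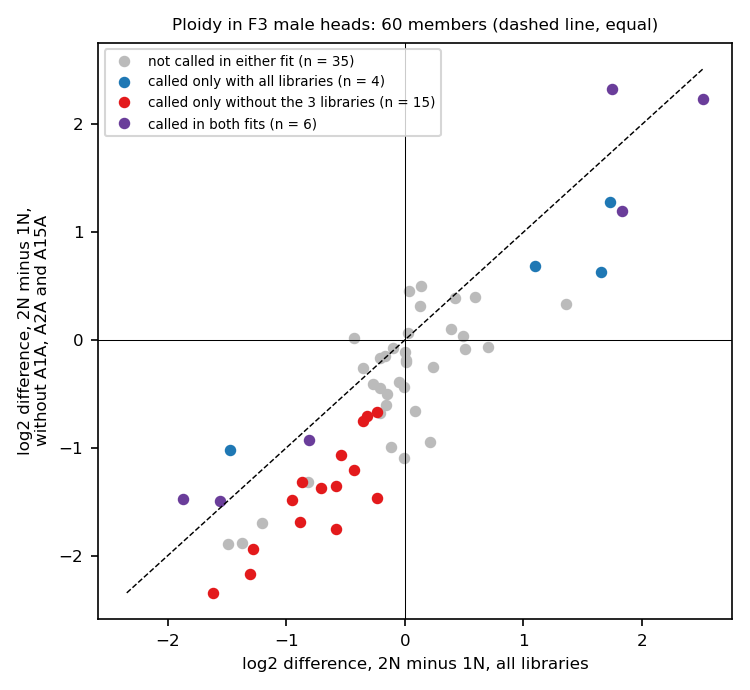
log2 difference between diploid and haploid F3 male heads for the 60 genes, with all libraries (x) and without A1A, A2A and A15A (y); colours show in which fit a gene was called (35 in neither, 4 only with all libraries, 15 only without the 3, 6 in both). Most points lie under the dashed line of equality, 47 of 60.

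In F15 heads 2 of the 60 genes were called, where 3.25% of all genes were. LOC100113821 was at 40.8, 44.6, 56.1, 60.3 and 68.4 TPM in haploids and 88.1, 90.1, 96.7, 118 and 146 TPM in diploids, without overlap, a log2 difference of 0.81 ± 0.18 (edgeR adjusted p 0.0171). Its call was lost without A83 (edgeR adjusted p 0.0674) and without A84 (edgeR adjusted p 0.0576). LOC116415953 was lower in diploids by -1.44 ± 0.37 (edgeR adjusted p 0.0388), a call that was lost on leaving out any of 9 single F15 libraries. The median log2 difference of the 60 was -0.52 against 0.01 for all genes, and 18 of the 60 had an unadjusted p below 0.05, as did 17.5% of all genes. When the spread was estimated without A1A, A2A and A15A, 10 were called, 1 higher and 9 lower, against 8.65% of all genes, and with only the F15 groups in the fit 19 were called, 1 higher and 18 lower, against 7.79% of all genes. DESeq2 called 7 with all libraries, where it called 6.38% of all genes. Without A81 and A84, the libraries low in Or1, edgeR called 0 of the 60 and 0.08% of all genes, 12 of the 60 had an unadjusted p below 0.05 against 11.2% of all genes, and the median log2 difference was -0.48. Single libraries also decided this count: it was 0 without A84, 1 without any of A81, A82, A83 and A71 to A75, 4 without A1A or A5 and 5 without A2A. Without A84, 18 of the 60 had an unadjusted p below 0.05, as did 15.4% of all genes.

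The ploidy difference changed between generations in 9 of the 60 genes, by a test of the interaction, where 8.64% of all genes were called. Without A1A, A2A and A15A 9 were called, 6 of them the same, against 24.1% of all genes, and the median interaction of the 60 turned from -0.30 to 0.13. Without A81 and A84 5 were called, against 4.5% of all genes. LOC100114997 and LOC107981939 were higher in diploids at F3 but not called at F15, with interactions of -2.42 ± 0.59 (edgeR adjusted p 0.0182) and -1.72 ± 0.40 (edgeR adjusted p 0.0133). The F3 call of LOC107981939, at 1.09 (edgeR adjusted p 0.0172), became 0.68 (edgeR adjusted p 0.066) without A1A, A2A and A15A, and both interactions were called without them. LOC100113821 and LOC100121233 changed the other way, with interactions of 1.17 ± 0.25 (edgeR adjusted p 0.00865) and 1.16 ± 0.27 (edgeR adjusted p 0.0126).

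In F3 male abdomens 24 of 58 genes differed with ploidy, 13 higher and 11 lower in diploids, where 40.9% of all genes were called. LOC100680538 was at 60.6 to 148 TPM in haploids and 295 to 363 TPM in diploids, a log2 difference of 1.97 ± 0.21 (edgeR adjusted p 3.7e-06). LOC100123866 rose by 1.80 ± 0.20 (edgeR adjusted p 6.09e-06). LOC100122580 was at 90.1, 107, 109, 115 and 142 TPM in haploids and 19.7, 27.2 and 27.4 TPM in diploids, a difference of -1.92 ± 0.36 (edgeR adjusted p 0.000603), so it was lower in F3 diploids in the head and in the abdomen. LOC100115602 was at 12.7, 13.4, 15.05, 15.5 and 20 TPM in haploids and 1.73, 2.23 and 3.92 TPM in diploids, a difference of -2.24 ± 0.49 (edgeR adjusted p 0.0017). The call of LOC103315799, at -4.25 ± 1.63 (edgeR adjusted p 0.0462), rested on library A10 and became -0.88 (edgeR adjusted p 0.581) without it.

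In F15 male abdomens 6 of 58 genes were called, 1 higher and 5 lower in diploids, where 4.11% of all genes were. LOC100115602 was again lower in diploids, at 1.01, 1.63, 2.58, 2.87 and 4.37 TPM in haploids and 0.06, 0.23, 0.28, 0.32 and 0.65 TPM in diploids, without overlap, a log2 difference of -2.86 ± 0.44 (edgeR adjusted p 0.00278). LOC100121833 was lower by -1.40 ± 0.29 (edgeR adjusted p 0.0113), and LOC100121889 was the higher one, at 2.01 ± 0.53 (edgeR adjusted p 0.0408), a call that was lost on leaving out most single libraries, A86, A88 and A90 among them. All 6 calls were lost when only the F15 groups were in the fit, which called 0.474% of all genes. In that fit 16 of the members had an unadjusted p below 0.05, as did 14.8% of all genes. DESeq2 called 11 in the fit with all male abdomens, where it called 8.05% of all genes. Without A86 2 genes were called, and without any of A9, A87 and A88 3 were.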

How the data were processed

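Gene expression was measured by polyA RNA sequencing of heads and abdomens. The authors deposited expected counts and TPM per gene, and the submitters' processing notes name STAR 2.7.11a and RSEM 1.3.1. Which genome build and annotation they used is not given in the sources used here. The deposited expected counts were rounded to whole numbers for testing, and the deposited TPM values were used for levels. Every column matched 1 library title, and no 2 libraries had identical counts. The members and lists were chosen with earlier results of these data known.

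The 3 fits (male heads with 20 libraries, male abdomens with 18, all abdomens with 36) used edgeR 4.0.16 in R 4.3.3: TMM scaling, a low-count filter by group, a robust quasi-likelihood test and Benjamini-Hochberg adjustment over all genes of the fit, with calls at an adjusted p below 0.05. The SE is the log2 difference divided by the square root of its F statistic. The steps were tested on simulated data with known changes. Alternatives were DESeq2 1.42.0, relative log expression scaling, no filter, only the groups compared, leaving out A1A, A2A and A15A (A1A and A2A, and A81 and A84, were left out as alternatives chosen after seeing the data), and leaving out each library in turn. RNA was extracted without DNase treatment, per the labels' protocols.

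Genes were named by a fixed rule: the 8 highest ratios, the genes beside the end of the list, up to 2 called genes per direction and comparison by adjusted p, neighbours in runs of 3 or more, the 5 lowest and 5 highest abdomen to head ratios, and genes with symbols that passed the same ratio. Others (LOC100114997 and LOC100116183 by library, LOC100123365 for ploidy, the genes called in opposite directions or lower in male abdomens, neighbouring pairs) were chosen after their values were seen. Gene order, overlaps and biotypes came from the RefSeq gene table of assembly Nvit_psr_1.1. The planned descriptions of proteins and promoters were not run, and no sequence was used here.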

Additional observations from a re-analysis of the deposited data

Results flagged for a closer look

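In 46 sets of a gene or a sum and a group of 5 male libraries, 1 had a library far from the others. LOC100123371 was at 95.2 TPM in library A73 of the F15 1N male heads, where the other 4 were at 37.5 to 46.5 TPM. For normally distributed values about 1 in 20 such groups would show this by chance. Whether the TPM values were so distributed was not examined, and the sets share libraries.

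For 9 of the 60 genes the ploidy difference (log2 of diploid over haploid male heads) was not the same at F15 as at F3, by edgeR's interaction test over all genes. It was higher at F15 for LOC100113821 by 1.17, for LOC100121233 by 1.16 and for LOC100122580 by 1.57. The change was -1.72 for LOC107981939, -2.42 for LOC100114997, -3.00 for LOC107980738, -2.68 for LOC100116183, -2.23 for LOC100119652 and -2.27 for LOC100118505. LOC107980738 was at 23.1 to 92.4 TPM in F3 1N heads, 97.1 to 315 TPM in F3 2N heads, 49.9 to 273 TPM in F15 1N heads and 33.5 to 95.1 TPM in F15 2N heads. Without A1A, A2A and A15A the calls of LOC100116183, LOC100122580 and LOC100118505 were lost, with edgeR adjusted p of 0.0687, 0.062 and 0.0602, in the same direction.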

How the results depend on the processing

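No gene of the 60 that was called with all libraries or under an alternative had the other sign in the other fit, in any comparison and alternative run. Uncalled values did: up to 13 of the 60 changed sign, for the interaction without A1A, A2A and A15A, where the median turned from -0.30 to 0.13, and the split of calls for ploidy in F3 heads went from 6 higher and 4 lower to 3 and 18. Of the counts of genes called, those for generation in heads and abdomens, for the F3 abdomens, and for sex in abdomens stayed within 1.5 times of the reported ones under DESeq2, the other scaling, no filter and the left-out libraries. The interaction count (9) did so too, apart from 5 without A81 and A84. For ploidy in F3 heads (10), 21 were called without A1A, A2A and A15A, 21 without A1A and A2A and 5 with only the compared groups. For ploidy in F15 heads (2), DESeq2 called 7, the fit without A1A, A2A and A15A 10, that without A1A and A2A 8, that without A81 and A84 0 and the compared groups alone 19. For ploidy in F15 abdomens (6), DESeq2 called 11 and the compared groups alone 0. The cause was not tested. Leaving out 1 library gave 8 to 10 for F3 heads, 0 to 5 for F15 heads, 24 to 27 for generation in heads, 6 to 11 for the interaction, 17 to 28 for F3 abdomens, 2 to 8 for F15 abdomens, 35 to 41 for generation in abdomens and 49 to 55 for sex. Over all genes the counts moved too: 1311 became 3665 without the 3 libraries and 687 with only the compared groups for F3 heads; 356 became 971 without the 3, 684 with DESeq2 and 804 with the compared groups for F15 heads; 946 became 2706 for the interaction without the 3; and 484 became 946 with DESeq2 and 52 with the compared groups for F15 abdomens. Leaving out 1 library gave 796 to 2032 genes for F3 heads, 117 to 560 for F15 heads, 592 to 1351 for the interaction and 285 to 673 for F15 abdomens. Of the single genes compared, 68 values lost their call and 25 gained one, of 2307 tried.

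No paired analysis was possible because every library has its own name and the groups share no replicate numbers. The groups hold 3 to 5 libraries, which limits precision, and TPM near 0 rests on few reads. Or1 and the low members moved together in A1A and A2A, Or1 was also low in A81 and A84, and its part was not tested.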
